A study of Mus musculus with 5 samples.

Results

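The 10 genes described here encode the cone version of the phototransduction cascade: the cone opsins Opn1sw and Opn1mw, the cone transducin subunits Gnat2, Gnb3 and Gngt2, the phosphodiesterase subunits Pde6c and Pde6h, the channel subunits Cnga3 and Cngb3, and cone arrestin, Arr3. They were taken by symbol from a table of 16422 genes. All 10 were in it, and all 10 had passed the authors' filter on low values in both fractions. The mice carried the genotype Aldhl1l-Cre/Ert2+; NuTRAP+, that is, a tamoxifen-induced Cre recombinase driven by the Aldh1l1 promoter, which is active in glia, and a Cre-dependent reporter that marks the nuclear envelope with biotin. Each sample was the pair of retinae of 1 animal. The Positive libraries (animals 12, 40 and 55, n = 3) hold nuclear RNA of nuclei captured on streptavidin beads, named as Müller glia in the study's design text, and the Input libraries (animals 40 and 55, n = 2) hold nuclear RNA of the 10% of nuclei set aside before capture. Both fractions came from mice of the same genotype and induction, the Input fraction of animal 12 is not analysed here, and the age of the animals is not given in the labels used here. The values are normalized and on a log2 scale relative to an Input baseline of each gene, so they show differences between libraries but no level of expression, and the sequencing depth is unknown.

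Cones are the photoreceptors of daylight and colour vision. Light absorbed by a cone opsin activates transducin, a G protein, whose alpha subunit relieves the block on phosphodiesterase 6. The enzyme breaks down cyclic GMP, the cyclic-nucleotide-gated channel closes and the cell hyperpolarises, and arrestin then binds the opsin and ends the signal. Rods run the same cascade with their own set of genes, and cones are the rarer of both photoreceptor types in the mouse retina.

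Lists of cell type markers were chosen with earlier results of these data known, so their counts are a description. All 10 of 10 Müller glia markers listed had a log2 fold change above 0 (median 0.45). In all 10 the lowest Positive library exceeded the highest Input library, against 16.7% of all genes. Markers of endothelium (median 0.56, 6 of 6 higher) and of pigment epithelium (median 0.96, 5 of 6 higher) were also higher in Positive, and markers of ON bipolar cells were lower (median -0.24, 8 of 8). The part of these other cell types in the values below was not tested. Limma called 0 of 16422 genes at an adjusted p under 0.05 and 2334 at an unadjusted p under 0.05, of which 1060 were higher and 1274 lower in Positive (709 and 555 after quantile normalization). In bulk nuclei, fewer nuclei of a type and less RNA per nucleus cannot be told apart.

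Of the 10 cone genes, 6 had a negative log2 fold change (Positive minus Input) and 4 a positive one, where 53.0% of all genes were negative and 47.0% positive. The median over the 10 was -0.060, beside -0.017 over all genes tested, and with 1 library left out it was 0.039 (Input 40), 0.0029 (Positive 55), -0.015 (Positive 12), -0.19 (Positive 40) and -0.21 (Input 55). The split of signs rested on single libraries too: 9 genes were negative and 1 positive without Positive 40, and likewise without Input 55, while 4 were negative and 6 positive without Input 40. Limma called 0 of the 10 at an adjusted p under 0.05, against 0.00% of all genes called lower and 0.00% called higher. In 3 cone genes, Arr3, Pde6c and Gnb3, every Positive library lay below both Input libraries, as it did in 21.8% of all genes, and in 0 cone genes did every Positive library lie above both, as in 16.7% of all genes. The fractions overlapped in the other 7 genes. At an unadjusted p under 0.05, 2 were lower (Arr3 and Pde6c), against 7.76% of all genes, and 0 were higher, against 6.45%. Leaving out 1 library changed that count of 2 to 0 without Input 55 and to 1 without Positive 12, Positive 55 or Input 40. It was 1 after quantile normalization, 1 under a fixed replicate block for animals (unadjusted p of Pde6c 0.0758 in limma) and 3 with a random one, Gnb3 being added (unadjusted p 0.0378 in limma).

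**Figure D1:**
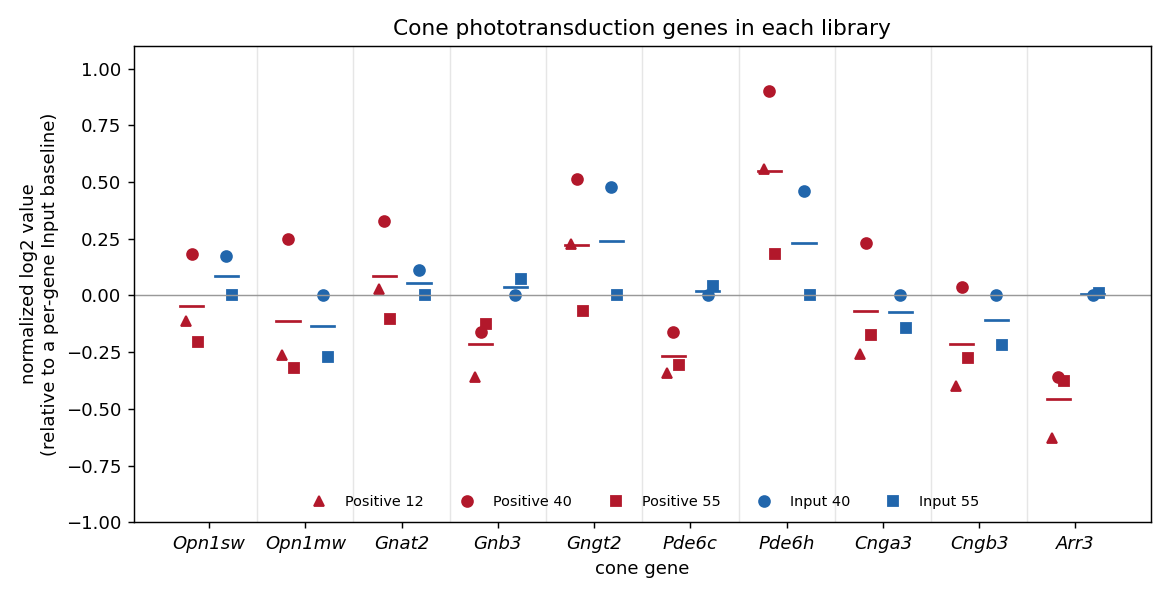
Normalized log2 value (y axis, relative to a per-gene Input baseline) of each cone gene (x axis) in the 3 Positive libraries (red) and the 2 Input libraries (blue); short lines are group means, and triangles, circles and squares are animals 12, 40 and 55. Only for Gnb3, Pde6c and Arr3 do all red points lie below both blue ones, and for the other 7 genes the circles of animal 40 lie above the squares of animal 55 in both fractions.

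Cone arrestin, Arr3, stood lowest of the 10. It is encoded on the X chromosome (Entrez gene 170735, mm10 chromosome X, 100605497 to 100618493, plus strand). Its normalized log2 value was -0.63 in Positive 12, -0.36 in Positive 40 and -0.38 in Positive 55, against 0 in Input 40 and 0.010 in Input 55. The Positive libraries were all below the Input libraries, which lay almost at the same value, and Positive 12 was the lowest. Positive libraries averaged -0.46 ± 0.15 (SD, n = 3), and Input libraries averaged 0.0050 ± 0.0071 (SD, n = 2). The log2 fold change was -0.46 (SE 0.11, 95% interval -0.75 to -0.17), or 0.727-fold, and only 5.71% of all genes tested had a lower one. Within animals the difference between Positive and Input was -0.36 in animal 40 and -0.39 in animal 55. Tested with all 16422 genes in limma, Arr3 had an unadjusted p of 0.00998 and an adjusted p of 0.331, above the threshold.

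The bases before the start of Arr3 and of Gnat2 are shown. Arr3 had the lowest fold change of the 10, and Gnat2 alone of the genes searched held the motif TAATCC. The log2 fold change was 0.029 in Gnat2, described below, and 0.0042 in Cnga3 and 0.024 in Opn1mw, which held no TAATCC. A link between these letters and the fold changes was not tested. RefSeq promoter sequences of GRCm38.p6 were found for 6 of the 10 genes (Opn1sw, Opn1mw, Gnat2, Pde6h, Cnga3 and Arr3), and 250 bases before each start were searched on both strands for TAATCC, the core recognised by CRX, the photoreceptor homeobox factor, and for TATAAA, the TATA box. TAATCC was present in 1 of the 6 genes, Gnat2, 19 bases before its RefSeq start on the minus strand, and in 6.25% of all 32851 promoters of the table. For Gnat2 alone of the 6, the stretch checked just after that start matched no transcript of the gene in GENCODE's annotation. TATAAA was present in Opn1mw and in 1 of the promoters of Cnga3, and in 12.4% of all promoters. Arr3 held neither, but held the related letters TAATCT 3 times, at 116, 102 and 10 bases before the start; this word was searched after its sequence had been read. Opn1sw also held it, and at least 1 TAATCT was found in 7.31% of all promoters and 3 or more in 0.0396%. These are matches of letters in a window, not binding sites. Capitals mark TAATCT in Arr3 and the reverse complement of TAATCC in Gnat2, and both sequences are written 5′ to 3′ on the plus strand.
Arr3, chrX:100605247-100605496: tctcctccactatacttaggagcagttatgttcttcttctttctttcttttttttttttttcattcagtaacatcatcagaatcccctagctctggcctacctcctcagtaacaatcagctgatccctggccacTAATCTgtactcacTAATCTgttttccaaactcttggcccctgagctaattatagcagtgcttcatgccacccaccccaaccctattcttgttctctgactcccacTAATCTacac
Gnat2, chr3:108092816-108093065: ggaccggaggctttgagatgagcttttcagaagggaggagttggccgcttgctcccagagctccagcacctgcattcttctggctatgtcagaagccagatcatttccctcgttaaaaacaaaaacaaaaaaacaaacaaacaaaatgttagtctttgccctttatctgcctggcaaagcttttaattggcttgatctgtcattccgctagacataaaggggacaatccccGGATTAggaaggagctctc

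The cone opsins differed from the arrestin in that their Positive and Input values overlapped. Opn1sw encodes the short-wavelength opsin (Entrez gene 12057, chromosome 6, 29376671 to 29380513, minus strand). Its value was -0.11 in Positive 12, 0.18 in Positive 40 and -0.21 in Positive 55, against 0.17 in Input 40 and 0 in Input 55. Both libraries of animal 40 were high and nearly equal. The log2 fold change was -0.13 (SE 0.15, 95% interval -0.52 to 0.25; adjusted p = 0.672 in limma), and the within-animal difference was 0.0093 in animal 40 and -0.21 in animal 55. With 1 library left out, the fold change was -0.25 (Positive 40), -0.22 (Input 55), -0.051 (Positive 55) or -0.045 (Input 40). Opn1mw encodes the medium-wavelength opsin (Entrez gene 14539, chromosome X, 74127466 to 74150755, plus strand). It had -0.26 in Positive 12, 0.25 in Positive 40 and -0.32 in Positive 55, against 0 in Input 40 and -0.27 in Input 55. Positive 40 was again the highest of the 5, and the Positive libraries spanned more than the Input libraries did. The log2 fold change was 0.024 (SE 0.21, 95% interval -0.53 to 0.58; adjusted p = 0.963 in limma), and it turned negative without Positive 40 (-0.16) or without Input 55 (-0.11). By GENCODE's annotation of the same build, an exon of Opn1sw overlaps one of Calu (log2 fold change -0.072), which lies on the opposite strand. The sources used here do not say if reads were counted by strand, so reads of such a pair cannot be told apart.

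Of the 3 transducin subunits, 1 was apart from Input in every library and 2 overlapped with it. Gnb3, the beta subunit, which ON bipolar cells also use (Entrez gene 14695, chromosome 6, 124834240 to 124840275, minus strand), had -0.36 in Positive 12, -0.16 in Positive 40 and -0.12 in Positive 55, against 0 in Input 40 and 0.072 in Input 55. All 3 Positive libraries were below both Input libraries. Its log2 fold change was -0.25 (SE 0.10, 95% interval -0.52 to 0.016; adjusted p = 0.358 in limma), with -0.16 within animal 40 and -0.20 within animal 55. Beside it, the listed markers of ON bipolar cells had a median log2 fold change of -0.24, led by Gpr179 (-0.44) and Grm6 (-0.41). Isl1 (-0.082) and Prkca (-0.051) were nearest to Input. In 6 of the 8 markers every Positive library lay below both Input libraries, as it did in 21.8% of all genes. How much of the Gnb3 signal came from bipolar nuclei was not tested.

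Gnat2, the alpha subunit that activates the phosphodiesterase (Entrez gene 14686, chromosome 3, 108093068 to 108101285, plus strand), had 0.030 in Positive 12, 0.33 in Positive 40 and -0.10 in Positive 55, against 0.11 in Input 40 and 0 in Input 55. The Positive values lay on both sides of the Input values. Its log2 fold change was 0.029 (SE 0.15, 95% interval -0.36 to 0.42; adjusted p = 0.937 in limma), and it turned negative after quantile normalization (-0.083), without Positive 40 (-0.092) and without Input 55 (-0.027). Gngt2, the gamma subunit (Entrez gene 14710, chromosome 11, 95842295 to 95845731, plus strand), had 0.23 in Positive 12, 0.51 in Positive 40 and -0.070 in Positive 55, against 0.48 in Input 40 and 0 in Input 55. The Positive libraries spanned 0.58 and the Input libraries 0.48, so each fraction was wider than the difference between them. The log2 fold change was -0.014 (SE 0.23, 95% interval -0.62 to 0.59; adjusted p = 0.980 in limma), and it was 0.0033 after median centring, 0.13 without Positive 55 and 0.22 without Input 40. Gngt2 shares 182 bases, exons included, with Abi3 on the opposite strand (log2 fold change -0.038).

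The phosphodiesterase subunits averaged on opposite sides of Input, except after quantile normalization, when both were below it. Pde6c, the catalytic subunit that hydrolyses cyclic GMP (Entrez gene 110855, chromosome 19, 38132781 to 38183951, plus strand), had -0.34 in Positive 12, -0.16 in Positive 40 and -0.31 in Positive 55, against 0 in Input 40 and 0.041 in Input 55. Every Positive library was below both Input libraries. The log2 fold change was -0.29 (SE 0.089, 95% interval -0.52 to -0.058), or 0.818-fold, with -0.16 within animal 40 and -0.35 within animal 55. In limma its unadjusted p was 0.0241 and its adjusted p 0.331, above the threshold. Pde6h, the inhibitory gamma subunit (Entrez gene 78600, chromosome 6, 136954523 to 136963483, plus strand), had 0.56 in Positive 12, 0.90 in Positive 40 and 0.18 in Positive 55, against 0.46 in Input 40 and 0 in Input 55. Its Positive libraries were above the Input library of the same animal, by 0.44 in animal 40 and 0.18 in animal 55, but Positive 55 lay below Input 40, so the fractions overlapped. It was the 1 cone gene of 10 higher in Positive in both animals, as were 31.7% of all genes, and Arr3, Pde6c and Gnb3 were the 3 of 10 lower in both, as were 38.4% of all genes. Pde6h had the highest log2 fold change of the 10, 0.32 (SE 0.26, 95% interval -0.36 to 1.00; adjusted p = 0.571 in limma), a value below which 89.4% of all genes lay. With 1 library left out it was 0.088 (Input 55), 0.14 (Positive 40), 0.50 (Positive 55) or 0.55 (Input 40), and quantile normalization gave -0.016.

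The channel subunits were close to Input on average and spread widely. Cnga3, the A subunit that forms the pore (Entrez gene 12790, chromosome 1, 37219261 to 37263384, plus strand), had -0.26 in Positive 12, 0.23 in Positive 40 and -0.17 in Positive 55, against 0 in Input 40 and -0.14 in Input 55. Its log2 fold change was 0.0042 (SE 0.17, 95% interval -0.45 to 0.45; adjusted p = 0.991 in limma), and -0.14 without Positive 40 or -0.067 without Input 55. Cngb3, the modulatory B subunit (Entrez gene 30952, chromosome 4, 19280850 to 19510623, plus strand), had -0.40 in Positive 12, 0.035 in Positive 40 and -0.28 in Positive 55, against 0 in Input 40 and -0.22 in Input 55. In both genes Positive 12 was the lowest library and Positive 40 the highest. The log2 fold change of Cngb3 was -0.11 (SE 0.16, 95% interval -0.53 to 0.32; adjusted p = 0.765 in limma), and with 1 library left out it was -0.23 (Positive 40), -0.21 (Input 55), -0.013 (Positive 12) or 0.0026 (Input 40), and quantile normalization gave 0.020. The interval spans 0 in 8 of the 10 cone genes, which does not show that they are equal in both fractions: the bounds for Opn1mw, for example, run between 0.692-fold and 1.49-fold.

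**Figure D2:**
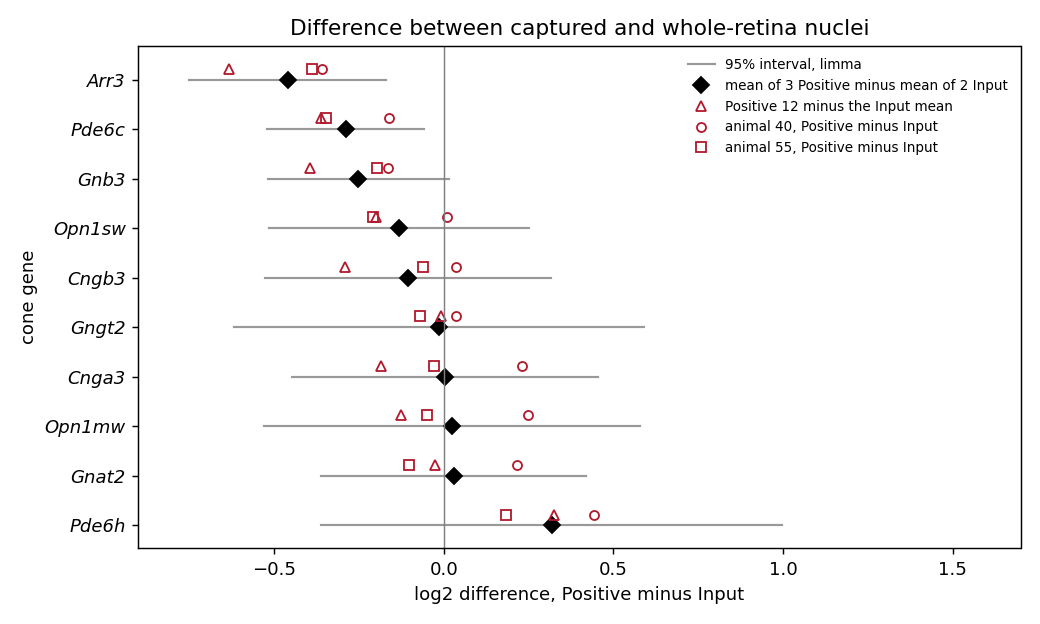
Log2 difference between Positive and Input (x axis) for each cone gene (y axis, lowest at the top): black diamonds are the mean of 3 Positive minus the mean of 2 Input libraries, grey lines limma's 95% intervals, and open red symbols the single differences (Positive 12 minus the Input mean, and Positive minus Input within animals 40 and 55). For Arr3, Pde6c and Gnb3 every red symbol lies left of 0, for Pde6h every one lies right of 0, and only Arr3 and Pde6c have an interval that leaves out 0.

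The cone genes varied between animals as well as between fractions. Positive 40 was the highest of the 3 Positive libraries in 9 of the 10, as it was in 32.6% of all genes, and it lay above both Input libraries in 7 (39.1% of all genes). Positive 55 lay below both Input libraries in 9 (39.7% of all genes), all but Pde6h, and Positive 12 in 6 (42.9% of all genes). Positive 12 was the lowest of the 3 Positive libraries in 5 (35.8% of all genes). Set against the Input mean, the median over the 10 genes was -0.19 in Positive 12, 0.21 in Positive 40 and -0.18 in Positive 55, where the median over all genes lay between -0.017 and -0.013 in these libraries. In Positive 40 the value exceeded the Input mean in 7 of the 10 genes, in Positive 12 in 1 and in Positive 55 in 0. Higher values in animal 40 were not particular to the cone genes. The median of Positive 40 minus Positive 55 was 0.40 in the cone genes, 0.35 in Müller glia markers and 0.22 in the rod counterparts described below. It was 0.17 in cascade genes listed as used by both rods and cones, 0.040 in ON bipolar markers, -0.29 in endothelial markers and -0.0097 over all genes.

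Input libraries showed the same order of animals. Input 40 was above Input 55 in 7 of the 10 genes, as it was in 43.2% of all genes, and these were the same 7 genes whose fractions overlapped. In those 7 the difference between animals 40 and 55 was 0.31 to 0.72 in Positive and 0.11 to 0.48 in Input, the highest in Positive being Pde6h and the highest in Input Gngt2. In Arr3, Pde6c and Gnb3 it was -0.039 to 0.15 in Positive and -0.072 to -0.010 in Input. The median of Input 40 minus Input 55 was 0.16 over the cone genes, 0.075 over Müller glia markers, 0.062 over the rod counterparts and -0.028 over all genes. Across the 10 genes, which share the same 4 libraries and are not independent, the difference between the animals in Positive and in Input had a Pearson correlation of 0.91 and a Spearman correlation of 0.85. The same correlation over all genes was not computed. Fractions separate more readily where libraries of 1 fraction lie close together, so the split into 3 and 7 genes is a description. The 10 genes have different lengths, from 3.44 kb (Gngt2) to 230 kb (Cngb3), and the Pearson correlation of log10 length with the difference between the Input libraries was -0.19 over the 10.

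**Figure D3:**
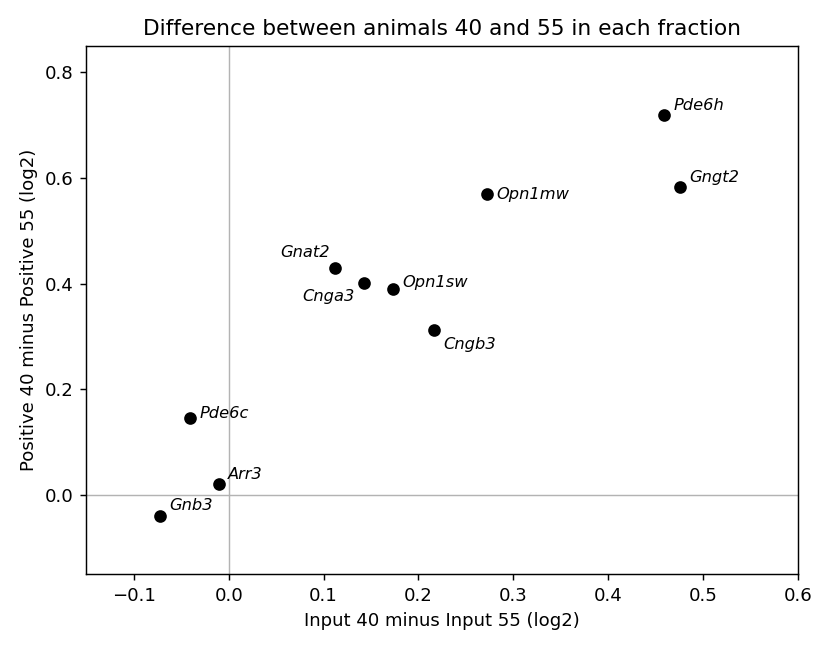
Difference between animals 40 and 55 in Positive nuclei (y axis, log2) against the same difference in Input nuclei (x axis, log2), 1 point for each of the 10 cone genes. Gnb3, Arr3 and Pde6c lie near 0 on both axes, and the other 7 are higher in animal 40 in both fractions, up to 0.72 in Positive for Pde6h.

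Beside their rod counterparts, the cone genes had the lower log2 fold change in 7 of 8 pairs, with a median difference of -0.18 (cone minus rod), and Pde6h was the exception. Within animals the cone gene was the lower in 4 of 8 pairs in animal 40 (median -0.043) and in 5 of 8 in animal 55 (median -0.032), and in both animals in 4. The median difference over all libraries was -0.051 without Positive 12, -0.28 without Positive 40 and -0.079 without Input 40. Arr3 had -0.46 and rod arrestin, Sag, 0.062, and the log2 ratio of Arr3 to Sag was -0.75 in Positive 12, -0.55 in Positive 40 and -0.36 in Positive 55, against -0.069 in Input 40 and 0.010 in Input 55. A ratio of this kind cancels only a single factor that scales a whole library. It also holds the variation of Sag, which had 0.12, 0.19 and -0.016 in Positive 12, 40 and 55. The ratios of Arr3 to Sag in both fractions did not overlap. The ratio of Gnb3 to Gnb1, the beta subunit used by rods and by many other cells, was -0.74 in Positive 12, -0.44 in Positive 40 and -0.15 in Positive 55, against -0.095 in Input 40 and 0.072 in Input 55. For Pde6c over the mean of the rod catalytic subunits Pde6a and Pde6b it was -0.40, -0.17 and -0.20 in Positive 12, 40 and 55, against -0.061 in Input 40 and 0.041 in Input 55. In the other 5 pairs the ratios of both fractions overlapped. The 3 pairs that did not overlap hold the same 3 cone genes that lay below both Input libraries by themselves, so they are no separate observation. No share over all genes was computed for such ratios. Cnga3 and Cnga1 had log2 fold changes of 0.0042 and 0.18, and Gngt2 and Gngt1 of -0.014 and 0.17. Gnat2 and Gnat1 (0.029 and 0.036) and Cngb3 and Cngb1 (-0.11 and -0.095) were nearly level, while Pde6h and Pde6g had 0.32 and -0.079. The differences within pairs were not tested.

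**Figure D4:**
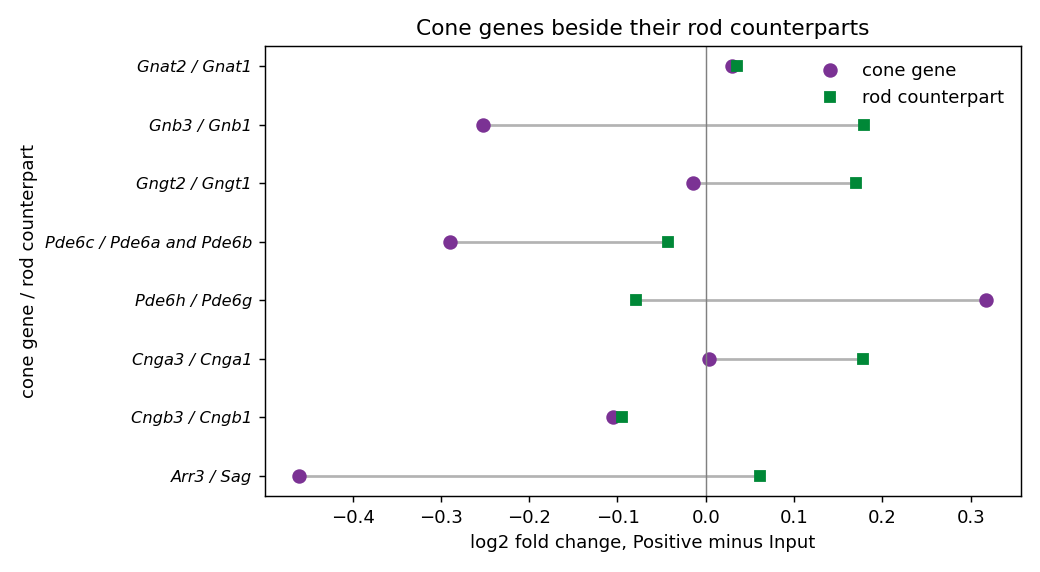
Log2 fold change, Positive minus Input (x axis), of each cone gene (purple circles) and of its rod counterpart (green squares), 1 pair to a row; the value beside Pde6c is the mean of Pde6a and Pde6b. The widest gaps with the cone gene on the left are Arr3 with Sag and Gnb3 with Gnb1, and Pde6h is the pair with the cone gene on the right.

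Genes of the cascade listed as used by both rods and cones were split by sign much as all genes were. The list holds Slc24a2 (log2 fold change -0.075), and its use by rods was not checked here. Of the 15 listed and measured, 8 had a negative and 7 a positive log2 fold change, against 53.0% and 47.0% of all genes. Their median was -0.012, and between -0.075 and 0.022 over the other settings, and limma called 0 at an adjusted p under 0.05. Every Positive library lay below both Input libraries in 6 and above both in 1, where all genes gave 21.8% and 16.7%. Rdh8, an outer-segment retinol dehydrogenase, was lowest at -0.31 (SE 0.075), followed by Rgs9bp, the membrane anchor of the transducin GTPase-activating complex, at -0.23. Pde6d, a chaperone of prenylated proteins, was highest at 0.24 (SE 0.12), followed by phosducin, Pdc, at 0.12. Of 5 cone genes outside the cascade, 3 had a negative log2 fold change, against 53.0% of all genes. Ccdc136 was the lowest at -0.32 (SE 0.087), followed by Thrb, the thyroid hormone receptor that directs medium-wavelength opsin expression, at -0.16. Sall3 was the highest at 0.074, followed by Kcne2, a potassium channel subunit, at 0.015. In 2 of the 5, Ccdc136 and Thrb, every Positive library lay below both Input libraries, as it did in 21.8% of all genes. Limma called 0 of the 5 at an adjusted p under 0.05.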

How the data were processed

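Nuclear RNA-seq values were analysed for 3 Positive and 2 Input libraries, grouped by the fraction in their labels. The authors deposited 1 table of normalized log2 values. The log base is not written in the file and was taken as 2. RefSeq gene models were used, per the file headers, and a gene was kept if all libraries of 1 condition or both reached a raw value of 5. The submitters' processing notes name mm10 as the build and DESeq as a tool. The aligner is not given in the sources used here, nor is the counting or a version of DESeq. An Input library was exactly 0 in 97.6% of genes, so values are relative to Input and depth is unknown.

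Differences between Positive and Input were fitted in R 4.3.3 with limma 3.58.1 (empirical Bayes, no trend, 3 residual degrees of freedom, two-sided, Benjamini-Hochberg over 16422 genes, threshold 0.05). The code of the fit was tested on simulated data with independent libraries. That test does not cover libraries that share an animal. SEs and intervals are moderated. All 10 members are named, lists by their 2 lowest and 2 highest genes, except those of Müller glia, endothelium and pigment epithelium, given by counts and medians, and some listed genes are not reported here. The members and lists were chosen with earlier results of these data known. The labels tie same-numbered libraries to 1 animal, and the deviations of such pairs from their group means correlated across genes at 0.17 (animal 40) and 0.20 (animal 55). The deviations of the 2 Input libraries are equal and opposite, so these correlations are not separate observations. With the animal as a random block, limma estimated a within-animal correlation of 0.51 over all genes. The main fit has no block, so it takes libraries of 1 animal as independent. Alternatives were each library left out, the animal as a fixed or random block, median centring, quantile normalization, the filter, a trend, a robust prior and no sex-linked genes. Replicates are separate animals.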

Additional observations from a re-analysis of the deposited data

How the results depend on the processing

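In 13 other settings limma called 0 of the 10 cone genes at an adjusted p under 0.05. Arr3, Pde6c, Gnb3 and Opn1sw kept a negative sign in every setting that holds them, with Arr3 between -0.51 and -0.37 and its adjusted p between 0.114 and 0.888. Leaving out 1 library gave ranges of -0.16 to 0.16 for Opn1mw, -0.092 to 0.12 for Gnat2, -0.25 to 0.22 for Gngt2, -0.14 to 0.10 for Cnga3 and -0.23 to 0.0026 for Cngb3. Quantile normalization turned Gnat2 (-0.083), Pde6h (-0.016) and Cngb3 (0.020), and median centring turned Gngt2 (0.0033); the cause was not tested. The median over the cone genes ranged from -0.21 without Input 55 to 0.039 without Input 40, and was 0.0029 without Positive 55. Under a random replicate block for the animal 11 genes passed in limma, 0 of them cone genes, and under a fixed replicate block, which drops Positive 12 from the contrast, 0; at that threshold the block changed no other call. At an unadjusted p under 0.05 the count over all genes ran from 930 without Input 55 to 4305 with the random block. Settings without sex-linked genes hold no value for Arr3 and Opn1mw, and with 1 Input library left its spread is assumed to be that of the Positive libraries. The depth is unknown, so what it limits cannot be stated.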
